A study of Mus musculus with 2 samples.

Results

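The microRNA hairpins Mir219a-1, Mir219a-2 and Mir338, which encode miR-219a and miR-338, were followed in the midbrain of newborn mice. They were chosen by gene symbol, not by any measured value, though earlier results of these data were known. They are 3 of the 1973 microRNA genes in the deposited count tables. There are 2 libraries, 1 from the midbrain of pup 1 and 1 from that of pup 3, prepared from the total RNA of B6NCrl mice on postnatal day 0 with a size range below 30 bases. Sex was not collected. The labels name separate pups but give 1 donor identifier for both, and the libraries were treated as 2 animals, so an SD here is the spread between these libraries. The series has 1 group, with no other age, tissue, genotype or treatment, so the data give the level of each hairpin at birth and how far the pups differed.

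MicroRNAs are cut from hairpin precursors, and the bases near the 5′ end of the mature strand, the seed, pair with messenger RNAs to repress them. miR-219 and miR-338 are known as microRNAs of the oligodendrocyte lineage, the cells that make myelin in the brain. They accumulate as oligodendrocyte precursors stop dividing and mature, and they repress factors that hold precursors in an immature state, among them Sox6, Hes5 and Pdgfra. Most myelin of the mouse brain is laid down after birth. In bulk tissue, fewer cells of a type and less RNA per cell cannot be told apart.

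All 3 hairpins matched the RefSeq microRNA table (GRCm38.p6), and they are shown because the counts of Mir219a-1 and Mir219a-2 turn on a stretch they share. Each runs 5′ to 3′, with the mature strands that RefSeq lists in capitals.
Mir219a-1, chr17:34024983-34025092, minus strand: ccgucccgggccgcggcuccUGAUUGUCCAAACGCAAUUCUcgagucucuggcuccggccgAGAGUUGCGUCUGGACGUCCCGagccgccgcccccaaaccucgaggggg
Mir219a-2, chr2:29845631-29845727, minus strand: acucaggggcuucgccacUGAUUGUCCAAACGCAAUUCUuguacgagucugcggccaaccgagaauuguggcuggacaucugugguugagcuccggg
Mir338, chr11:120014765-120014862, minus strand: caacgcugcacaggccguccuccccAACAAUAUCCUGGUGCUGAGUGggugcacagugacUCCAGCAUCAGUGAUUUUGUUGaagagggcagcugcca

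The mature microRNAs are given with the seed, bases 2 to 8, in capitals.
miR-219a-5p, from Mir219a-1 and Mir219a-2: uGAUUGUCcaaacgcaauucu
miR-219a-1-3p, from Mir219a-1: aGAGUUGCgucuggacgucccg
miR-338-3p, from Mir338: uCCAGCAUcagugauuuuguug
miR-338-5p, from Mir338: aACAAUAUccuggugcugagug
The 4 listed seeds differ from one another. Among the 1679 mature microRNA names in the RefSeq table, 0 others carried any of them. The listed strands of miR-219 and miR-338 are thus known from the same lineage but share no seed. For Mir219a-2 RefSeq lists miR-219a-5p alone, so any strand cut from its other arm is not shown here.

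The longest run that Mir219a-1 and Mir219a-2 have in common is CUGAUUGUCCAAACGCAAUUCU, 22 bases from position 20 to 41 of Mir219a-1 and from 18 to 39 of Mir219a-2. It holds the whole of miR-219a-5p, which is 21 bases long. An exact read that begins at the first base of miR-219a-5p has to reach 22 bases before it belongs to a single hairpin of the annotation. The strand miR-219a-1-3p was found in no other hairpin even at 10 bases, the shortest length tried. For Mir338, all 77 windows of 22 bases were found at its own locus alone, and its longest run shared with another hairpin was 15 bases, with the reverse strand of Mir7011. In all, 1 of 89 windows of Mir219a-1 and 1 of 76 windows of Mir219a-2 were shared.

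**Figure D1:**
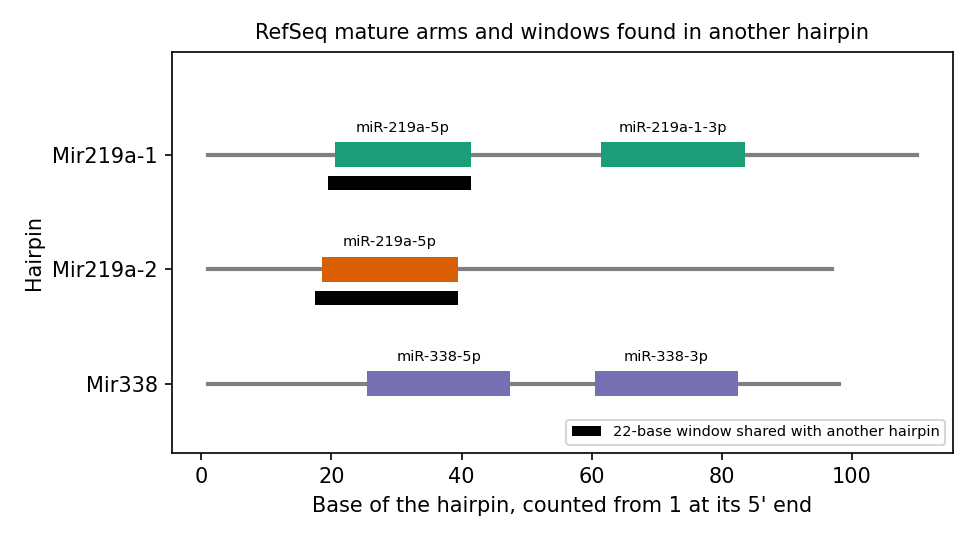
Position along each hairpin in bases from its 5′ end (x axis) for the 3 hairpins (rows), with coloured boxes for the mature strands in RefSeq and black boxes for 22-base windows also found in another hairpin. The black boxes lie over miR-219a-5p in Mir219a-1 and Mir219a-2, and Mir338 has none.

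The counting in the deposited tables leaves a read that maps to several places out of every gene, and such reads were 38.7% of the library for pup 1 and 39.8% for pup 3. In every count column the genes and the rows that name no gene add up to the same number of reads. Exact reads of miR-219a-5p of up to 21 bases match both hairpins and would fall in that class. The values below for Mir219a-1 and Mir219a-2 are therefore counts of reads that belong to 1 locus, and the level of miR-219a-5p itself is uncertain. The tables do not separate the strands of a hairpin, so no value below is specific to a mature strand. The only listed strand of Mir219a-2 lies within the shared run, and its counts may come from an unlisted strand. That was not tested. Mir338 is free of the shared run.

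The library of pup 1 holds 2337113 own-strand counts on genes, and that of pup 3 holds 3195277. Levels are CPM, own-strand counts per 1000000 such counts, and means carry the SD over n = 2 pups. Detection required 10 or more counts in both libraries. All 3 hairpins were detected, as were 359 of the 1973 genes, and 1276 genes had 0 counts in both libraries.

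Mir338 had the highest mean level of the 3 in counts at 1 locus, which for Mir219a-1 and Mir219a-2 leave out shared reads. It had 1749 counts in pup 1 and 2529 in pup 3, which is 748 CPM (exact 95% binomial interval 714 to 784) and 791 CPM (761 to 823). The intervals, which cover counting error only, overlap between the pups. The mean was 770 ± 30.5 CPM (n = 2), rank 112 of all genes. The SD between pups was above the counting SD of 17.9 CPM in pup 1 and 15.7 CPM in pup 3. With n = 2 and overlapping intervals, spread beyond counting error was not shown. Mir338 (ENSMUSG00000065600.1) lies on the strand of Aatk, which encodes a protein kinase, in intron 7 of each of the 3 protein-coding Aatk transcripts of GENCODE M21, which have 14 exons.

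Mir219a-2 came next. It had 1679 counts in pup 1 and 1859 in pup 3, or 718 CPM (684 to 754) and 582 CPM (556 to 609). The intervals of the pups do not overlap. The mean was 650.1 ± 96.6 CPM (n = 2), rank 119, and the SD between pups was above the counting SD of 17.5 CPM in pup 1 and 13.5 CPM in pup 3. Mir219a-2 (ENSMUSG00000065485.1) lies in no annotated gene on its own strand, and the nearest gene other than a hairpin is Urm1 on the other strand, 629 bases away.

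Mir219a-1 had the lowest level, with 443 counts in pup 1 and 561 in pup 3, or 189.6 CPM (172 to 208) and 176 CPM (161 to 191). The intervals overlap, and the mean was 183 ± 9.88 CPM (n = 2), rank 193. Its SD between pups was close to the counting SD of 9.01 CPM in pup 1 and 7.41 CPM in pup 3, so no spread beyond counting error was detectable. Mir219a-1 (ENSMUSG00000065555.1) overlaps the single exon of the noncoding gene Gm26940 on its own strand over 88 bases and lies 303 bases from Ring1, which encodes a Polycomb protein.

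**Figure D2:**
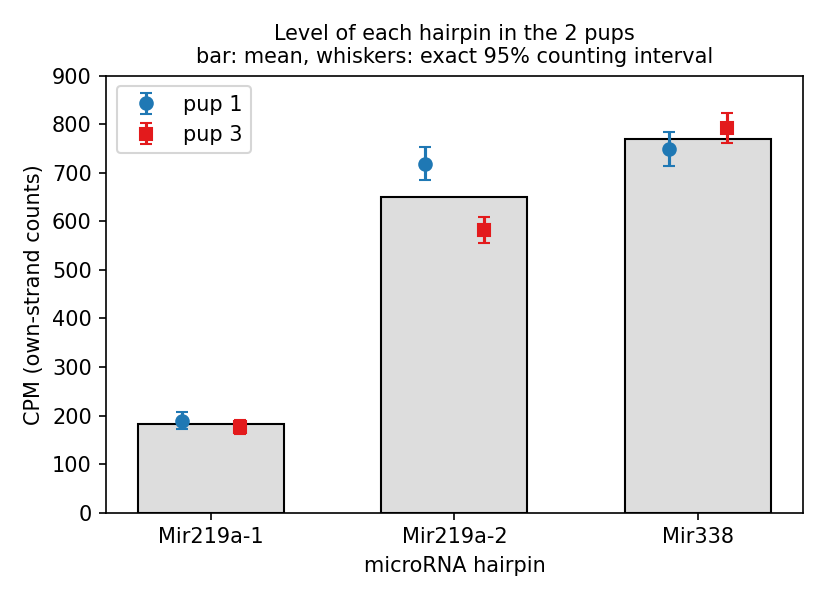
Level in CPM (y axis) of the 3 hairpins (x axis), with bars for the mean of 2 pups, points for each pup and whiskers for the exact 95% counting interval. The points of Mir338 and of Mir219a-1 have overlapping whiskers, and those of Mir219a-2, at 718 and 582 CPM, do not.

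Together the 3 hairpins held 0.166% of the own-strand counts of pup 1 (exact 95% interval 0.160 to 0.171) and 0.155% of those of pup 3 (0.151 to 0.159). Within this sum Mir219a-1 kept nearly the same part, 11.4% in pup 1 and 11.3% in pup 3. Mir338 made up 45.2% in pup 1 (43.6 to 46.8) and 51.1% in pup 3 (49.7 to 52.5). Mir219a-2 made up 43.4% (41.8 to 45.0) and 37.6% (36.2 to 38.9). The intervals of the pups do not overlap for the parts of Mir338 and Mir219a-2 and do for that of Mir219a-1. The parts add up to the whole, so a larger part of Mir338 is not a higher level of it, and the intervals leave out the spread between animals.

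By counts the order was Mir338, Mir219a-2, Mir219a-1 in both pups, but in pup 1 Mir338 and Mir219a-2 lay within counting error. Mir338 took 51.0% of their joint counts in pup 1 (49.3 to 52.7) and 57.6% in pup 3 (56.2 to 59.1). Counts of Mir219a-2 leave out reads within the run it shares with Mir219a-1, and Mir338 is free of that run. The order of their counts is therefore not an order of their mature microRNAs. Ratios of counts are given with those of counts per base of hairpin, since the tables hold neither the length nor the position of reads. Counts of reads below 30 bases need not rise with hairpin length, so the per-base ratios are a second description, not a correction. The ratio of Mir338 to Mir219a-2 counts was 1.04 in pup 1 and 1.36 in pup 3, and per base of hairpin 1.03 and 1.35.

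Between the hairpins that share miR-219a-5p, Mir219a-2 counts were 3.79 times those of Mir219a-1 in pup 1 and 3.31 times in pup 3. Per base of hairpin the ratios were 4.30 and 3.76. Mir219a-1 took 20.9% of their joint counts in pup 1 (19.2 to 22.7) and 23.2% in pup 3 (21.5 to 24.9), with overlapping intervals. The order of these loci was the same in both pups, but it holds for reads found at 1 place and leaves out the shared ones.

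The pups were compared over all 286 genes whose mean count reached 50. Fisher's exact test, two-sided, set the counts of each gene against the rest of its library, with Benjamini-Hochberg adjustment over the 286. This test compares 2 libraries, not conditions, and has no replicate check. Ratios are pup 3 over pup 1 after TMM scaling. Of the 3 hairpins, 1 passed at any fold, where 57.3% of all tested genes passed, and 0 passed with at least a 2-fold ratio, where 1.75% did. A share of 1 in 3 is not above that background.

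Mir219a-2 was the hairpin that passed, and it was lower in pup 3. Of all tested genes, 23.4% passed at any fold with a TMM-scaled ratio that was lower in pup 3, and 33.9% with one that was higher. The test itself used unscaled totals, so some genes with a ratio near 1 count as lower despite a higher CPM in pup 3. Mir135b is one, with 13448 CPM in pup 1, 13711 CPM in pup 3 and a log2 ratio of -0.02. The log2 ratio of Mir219a-2 was -0.35, a 0.783-fold level (95% counting interval 0.732 to 0.837), with an adjusted Fisher's exact p of 1.69e-09. Another 33 of the 286 genes had a ratio as low or lower, and another 49 a ratio as far from 1 in either direction. Its difference was thus larger than that of most tested genes, and those 49 differed as much or more.

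Mir219a-1 had a log2 ratio of -0.16 (0.789 to 1.02-fold, adjusted Fisher's exact p = 0.323). Mir338 had a log2 ratio of 0.03 (0.961 to 1.09-fold, adjusted Fisher's exact p = 0.116). Neither passed, and their counting intervals include a ratio of 1. The median log2 ratio of the 3 hairpins was -0.16, against 0.02 over all 286 genes, and the median absolute log2 ratio of all genes was 0.15. Mir219a-1 lay at percentile 51.7 of the absolute ratios, Mir338 at 13.6 and Mir219a-2 at 82.9.

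**Figure D3:**
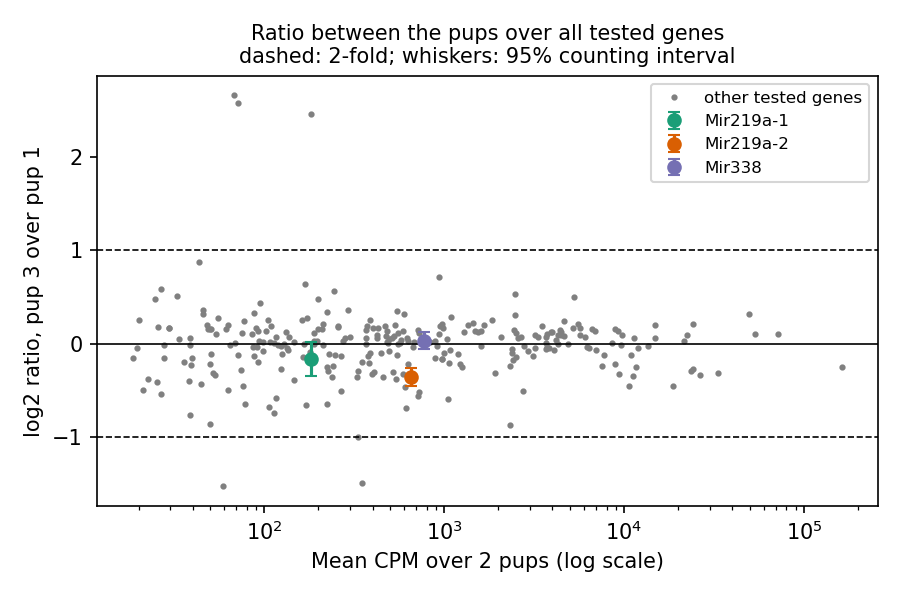
Log2 ratio of pup 3 over pup 1 after TMM scaling (y axis) against mean CPM on a log axis (x axis) for the 286 tested genes, with the 3 hairpins coloured, their 95% counting intervals as whiskers and dashed lines at 2-fold. The 3 hairpins lie inside the 2-fold lines, and the whiskers of Mir219a-2 alone do not reach 0.

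Sums over markers of some other cell types also differed between the same libraries, and those of others were close. In pup 1 and pup 3 the mural list (lists are given below) held 0.721% and 0.712% of counts. The neuronal list held 4.38% and 4.88%, the microglia and leukocyte list 0.0668% and 0.0597%, and Mir126a of the endothelium 3.62% and 3.01%. The epithelial list of 7 hairpins, the miR-200 family with Mir203 and Mir205, summed to 0.0666% of counts in pup 1 and 0.125% in pup 3, with 5 of 7 detected and none at 0 in both pups. The red blood cell list of Mir451a, Mir144 and Mir486 summed to 0.0125% and 0.00742%, with 3 of 3 detected. Its members did not go one way, since Mir451a had 86.4 CPM in pup 1 against 30.98 CPM in pup 3, and Mir144 20.1 against 29.1 CPM. The part of these cell types in the ratio of Mir219a-2 was not tested.

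Among detected genes, which had a median of 225 CPM, Mir338 lay 3.41-fold above the median and Mir219a-2 2.88-fold above it, and Mir219a-1 lay at 0.810 of it. The genes just above Mir338 in mean level were Mir181b-2 at 826 ± 28.6 CPM and Mir384 at 838 ± 25.8 CPM, and the ranges of both lay above that of Mir338. Just below it, Mir351 at 727 ± 166 CPM and Mir325 at 720.5 ± 58.0 CPM had ranges that overlap it. Of the other detected genes, 6 had values in the 2 pups whose range overlaps that of Mir338.

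Mir219a-2 was flanked by Mir467c at 673 ± 6.21 CPM and Mir1251 at 680.4 ± 23.0 CPM above, and by Mir221 at 629 ± 25.5 CPM and Mir185 at 626 ± 50.5 CPM below. All 4 overlap its range, as did 19 detected genes in all, more than for Mir338. Mir219a-1 was flanked by Mir217 at 188 ± 3.90 CPM and Mir542 at 189 ± 15.3 CPM above, and by Mir429 at 181 ± 179 CPM and Mir145a at 179 ± 3.91 CPM below. These 4 overlap it, among them Mir429, whose pups differed widely (53.9 and 308 CPM). The likeness is in level alone, over 2 libraries.

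**Figure D4:**
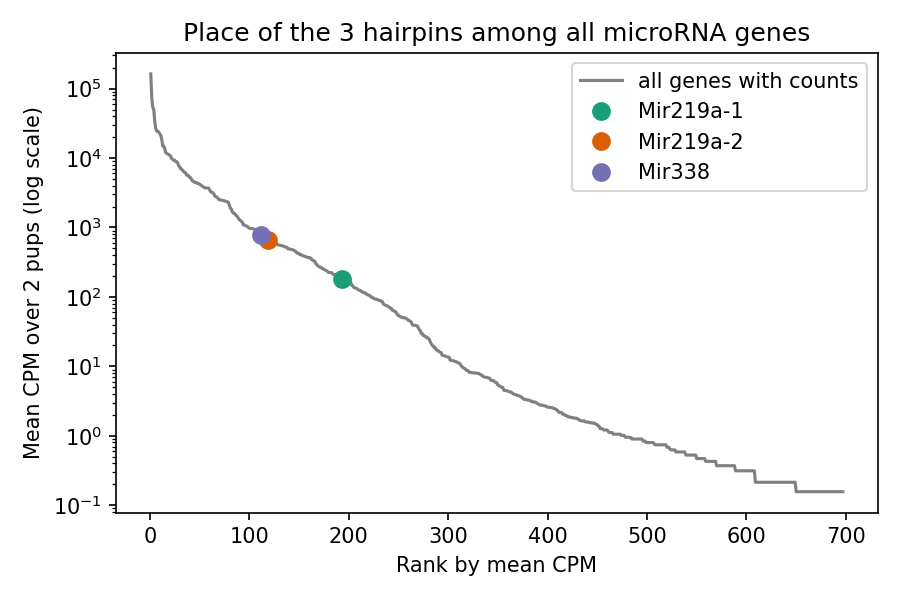
Mean CPM over 2 pups on a log axis (y axis) against rank (x axis) for all genes with counts, with the 3 hairpins as coloured points. Mir338 and Mir219a-2 lie side by side at ranks 112 and 119, and Mir219a-1 lies lower at rank 193.

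Other microRNAs studied in the oligodendrocyte lineage were taken from a list of 24 symbols, older and newer spellings both included, of which 19 were in the tables. They were detected in 18 of 19 cases, where 359 of all 1973 genes were. Of the 19, 10 had a higher mean level than Mir338, which ranked 112 of all 1973 genes. The list median was 934 CPM, beside 650.1 CPM for the 3 hairpins. It was 225 CPM over the 359 detected genes and 0 over all 1973, of which 1276 had no counts. The list is not particular to the lineage, since Mir212 is also in the neuronal list below and Mir145a in the mural one. Mir17, of the miR-17-92 cluster that supports the division of precursors, had 8870 ± 894 CPM (n = 2), from 8238 CPM in pup 1 to 9502 CPM in pup 3. Mir23a, studied as a repressor of lamin B1 in oligodendrocytes, had 6229 ± 27.7 CPM, 6209 CPM in pup 1 and 6249 CPM in pup 3.

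Mir138-1 and Mir138-2, both hairpins of miR-138, which was described in maturing oligodendrocytes beside miR-219 and miR-338, had 1915 ± 249 and 1070.3 ± 79.6 CPM. For pup 1 Mir138-1 stood at 2091 CPM and for pup 3 at 1739 CPM, and Mir138-2 stood at 1127 and 1014.0 CPM. Like Mir219a-2, both were lower in pup 3, with log2 ratios of -0.32 (adjusted Fisher's exact p = 3.32e-20) and -0.20 (adjusted Fisher's exact p = 0.000154). Mir204 had 1264 ± 121 CPM and a log2 ratio of -0.25 (adjusted Fisher's exact p = 6.5e-08). Of the miR-7 hairpins, Mir7b with a log2 ratio of 0.50 (adjusted Fisher's exact p = 3.99e-220) and Mir7-1 with 0.71 (adjusted Fisher's exact p = 3.11e-74) went the other way. Mir7-2, with a log2 ratio of 0.04 (adjusted Fisher's exact p = 0.157), did not pass. Of the 17 list genes tested, 6 were higher and 5 lower in pup 3 at any fold, 0 passed with at least 2-fold, and the median log2 ratio was -0.02. Over all 286 tested genes, by the direction of the scaled ratio, 33.9% passed as higher, 23.4% as lower and 1.75% with at least 2-fold. The counts of the list are near this background and say nothing particular of it.

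Lower in the list, Mir32 had 199.7 ± 19.8 CPM, Mir145a 179 ± 3.91 CPM, Mir212 124 ± 1.69 CPM and Mir27a 119 ± 2.22 CPM. The ranges of Mir32 and Mir145a overlap that of Mir219a-1, and those of Mir212 and Mir27a lie below it. The lowest was Mir9-2 at 1.05 ± 0.280 CPM, which was not detected. These counts leave out reads that map to several places, so a low count of Mir9-2 is not a low level of miR-9.

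Set beside markers of other cell types of a dissected midbrain, the 3 hairpins held 0.160% ± 0.00760 of counts (n = 2). The list of 9 neuronal hairpins held 4.63% ± 0.355, or 28.9 times as much, led by Mir137 at 24297 ± 3132 CPM and Mir153 at 9302 ± 849 CPM. Of these 9 hairpins 7 were detected. Of the 9, 4 were lower than each of the 3 hairpins: Mir212 at 124 CPM, Mir124a-1 at 11.6 CPM, Mir124a-2 at 3.26 CPM and Mir124a-3 at 2.17 CPM. Reads that match several Mir124a hairpins are left out of these counts, so low counts there are not a low level of miR-124. Mir126a of the endothelium held 3.31% ± 0.431, or 20.7 times as much, and the 2 mural hairpins Mir143 and Mir145a 0.717% ± 0.00638. Most of the mural share was Mir143 at 6990 ± 59.9 CPM, while Mir145a at 179 ± 3.91 CPM lay near Mir219a-1. The 4 microglia and leukocyte hairpins in the tables held 0.0632% ± 0.00505, 0.394 times the share of the 3 hairpins, led by Mir150 and Mir146. Mir122 of the liver, at 53.3 ± 7.59 CPM, and Mir206 of muscle, at 19.7 ± 0.0242 CPM, were lower than each of the 3 hairpins in both pups. Of the 4 muscle hairpins in the tables, Mir206 was the 1 detected, and 3 had 0 counts in both pups. Lists differ in size and in how many reads are lost to shared sequence, and microRNA per cell is not known, so these shares are not shares of cells.

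**Figure D5:**
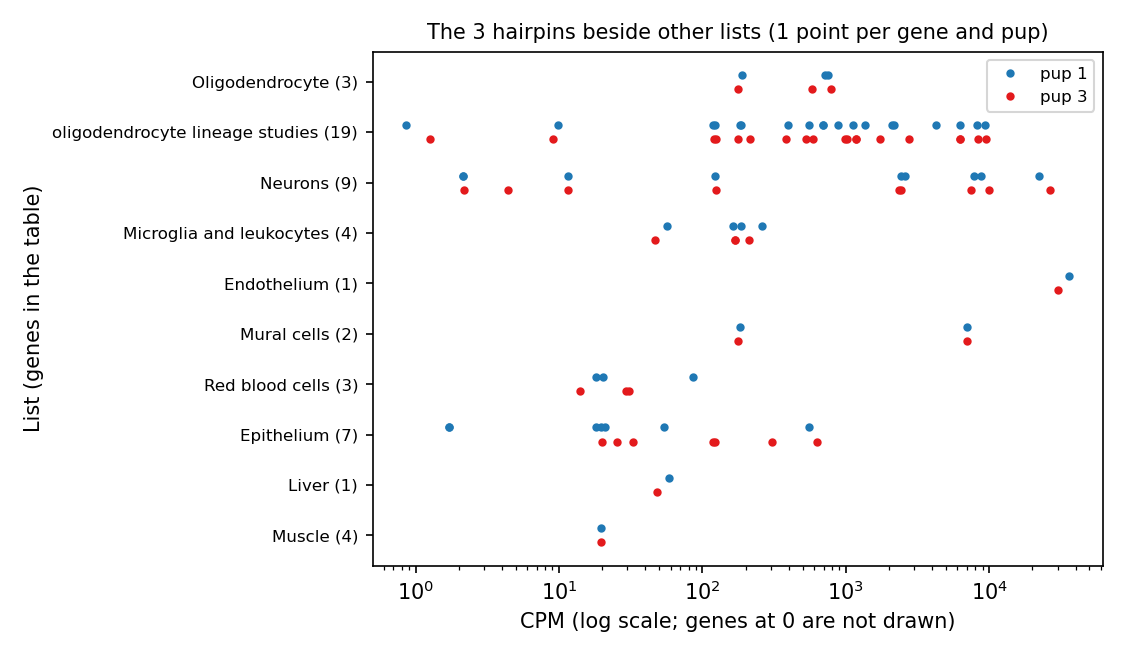
CPM on a log axis (x axis) of each gene of 10 lists (rows, with the number of genes in the tables), with 1 point per gene and pup in blue for pup 1 and red for pup 3. The 3 hairpins span 176 to 791 CPM, below Mir126a of the endothelium and within the span of the neuronal list.

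On the strand opposite each hairpin the annotation holds another hairpin, Mir219c over 60 bases of Mir219a-1, Mir219b over 65 bases of Mir219a-2 and Mir3065 over 87 bases of Mir338. These 3 were counted under no gene of their own here, and reads from them that map to 1 place would fall in the opposite-strand column of their partner. That column had 4 counts in each pup at Mir219a-1, which is 0.895% of its either-strand counts in pup 1 and 0.708% in pup 3. It had 0 counts in both pups at Mir219a-2, where a count of 0 still admits 3 counts, 1.28 CPM of the own-strand total for pup 1 and 0.939 CPM for pup 3. At Mir338 it had 1 count in pup 1 and 0 in pup 3. Nearly all reads counted at these loci therefore lay on the strand of miR-219a and miR-338. Reads within the run that Mir219a-1 and Mir219a-2 share are in no column, on either strand, so their strand is not known.

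In sequence the hairpins had a GC content of 69.1% for Mir219a-1, 55.7% for Mir219a-2 and 56.1% for Mir338. Folded with ViennaRNA, Mir219a-1 had a minimum free energy of -58.7 kcal/mol, Mir219a-2 of -48.2 kcal/mol and Mir338 of -41.9 kcal/mol. Per base, Mir219a-1 was more stable than 90.8% of the 1894 hairpins folded, Mir219a-2 than 85.6% and Mir338 than 68.4%. The order of stability is the reverse of the order of counts, a description of 3 hairpins.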

How the data were processed

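Small RNA libraries of 2 newborn midbrains were analysed as 1 group. Per the deposited descriptions, the authors made raw counts per gene from alignments to mm10 with GENCODE M4. Aligner and counter: not given in the sources used here. The deposited counts have 3 columns without a header. They were read as either strand, the gene's own strand and the opposite strand from their values, since the own and opposite columns add up to the either column and the own column holds 96.8% and 96.6% of it, and own-strand counts were used. The 4 rows that name no gene took 57.2% and 56.7% of reads and stayed out of totals.

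Identifiers were matched without version to GENCODE M21, and 1894 of 1973 had a symbol. Shared sequence was searched by exact match over 2202 annotated hairpins, both strands, leaving out hairpins at the same place. The genome itself was not searched. Ratios used TMM (edgeR 4.0.16) with a prior count of 0.5, and Fisher's exact tests (scipy 1.17.1) used unscaled totals. The call with at least 2-fold was tested on simulated counts that had counting error only, with no spread between animals. Results at any fold, shares, intervals and sequence searches were not tested in this way. Intervals are Clopper-Pearson and, like the limit of 3 counts for a count of 0, cover counting error only. Molecular identifiers were not used here, so copies of the same molecule were not told apart.

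The hairpins and lists were chosen with earlier results of these data known. Named were the 3 hairpins, hairpins overlapping them, the 2 genes next above and below each in level, and leading genes of each list. Alternatives were other strand columns, totals, count minimums, fold thresholds, prior counts, scalings (DESeq2 1.42.0, plain CPM), window lengths and each pup alone. No batch is given in the labels.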

Additional observations from a re-analysis of the deposited data

Results flagged for a closer look

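The opposite-strand column, outside the main measurement, had 4 counts at Mir219a-1 in pup 1 and 4 in pup 3. It was flagged for holding more than 3 counts, which is a set limit and not a test. The RefSeq strands of Mir219c, the hairpin annotated there, are shown, with the seed in capitals, because they lie on the strand of these counts.
miR-219c-5p, chr17:34025012-34025033, plus strand: gGACGUCCagacgcaacucucg
miR-219c-3p, chr17:34025050-34025071, plus strand: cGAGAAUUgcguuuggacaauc
Among 290 genes with at least 50 either-strand counts in each library, the median opposite-strand share was 0% in both pups, 25 genes in pup 1 and 26 in pup 3 had any such count, and 14 had a higher share than Mir219a-1. Where on the hairpin these reads lie was not tested, since the tables give no positions.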

How the results depend on the processing

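The direction of the ratio between pups and its side of the 2-fold threshold held for each of the 3 hairpins with DESeq2 size factors, plain CPM, a prior count of 2 and either-strand counts. Levels moved with the total used, which cannot change their order. Without the most abundant gene, Mir219a-1, Mir219a-2 and Mir338 had 218, 778 and 919.5 CPM and together 0.192%. Over all reads in the files they had 78.5, 279.6 and 331 CPM and 0.0690%. Without hairpins that share a run of 20 bases in the total they had 212, 753 and 892 CPM and 0.186%. Per base of hairpin, Mir219a-1 took 19.9% of the counts of both Mir219a hairpins. Genes called different numbered 5, and 10 with a mean count of at least 10, 11 with at least 1, 19 at 1.5-fold and 164 at any fold. Detected genes numbered 559 with 1 count in each library. With windows of 24 bases, 100% of those of Mir219a-1 and 100% of those of Mir219a-2 were found at 1 place, in place of 98.9% and 98.7%. These values moved by the construction of each alternative (another total, filter, threshold or length). The search of all annotated transcripts, chosen after seeing the data, gave the same shares as hairpins alone. Each pup alone is given with the levels. No paired analysis was possible because the series has 1 group. With 2 pups, the SD between pups is itself imprecise.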
